A study of Mus musculus with 8 samples.

Results

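The 10 genes described here, Icam1, Vcam1, Pdpn, Bst1, Ch25h, Enpp2, Il7, Cxcl12, Cxcl13 and Cr2, encode adhesion and organiser molecules of lymphoid stroma. They were taken by name from a deposited table of 53801 genes, in which 10 of 10 were found. The libraries hold RNA of stromal cells sorted as CD45- (no leukocyte marker) and CD31- (no endothelial marker) from small-intestinal ulcers of mice named LTBRYFP. There were 4 libraries of YFP+ cells and 4 of YFP- cells, numbered 1 to 4 in each group. Both groups came from mice given indomethacin, a cyclooxygenase inhibitor that damages the small intestine, and no untreated group enters these comparisons. The labels state neither strain, age and number of animals nor how YFP relates to Ltbr, and the cells that carry YFP are known here only by the sort.

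In lymph nodes, Peyer's patches and tertiary lymphoid tissue, fibroblast-like organiser cells attract and hold lymphocytes. Lymphotoxin from lymphoid cells engages the lymphotoxin beta receptor on such cells, and the noncanonical NF-kB dimer of RelB and p52 then raises homeostatic chemokines and adhesion molecules. ICAM-1 and VCAM-1 bind leukocyte integrins, podoplanin (Pdpn) marks fibroblastic reticular cells, and the chemokines CXCL12 and CXCL13 guide cells that carry CXCR4 and CXCR5. Interleukin 7 sustains lymphocytes, and Enpp2 and Ch25h encode enzymes that make lipid guidance cues. Bst1 (CD157) marks reticular cells, and Cr2 encodes complement receptor 2 of B cells and follicular dendritic cells.

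Promoter sequences from RefSeq (GRCm38.p6) were matched by symbol for 6 of the 10 genes, Icam1, Pdpn, Ch25h, Cxcl12, Cxcl13 and Cr2. The 250 bases before the annotated start are shown for 4 of them: Cxcl13 and Ch25h share a word that resembles an NF-kB site, and Icam1 and Cxcl12 were lower in YFP+ cells in every pair of libraries. Capitals mark matches, on either strand, to the loose NF-kB motif GGGNNNNNCC or to the shared word.
Cxcl13: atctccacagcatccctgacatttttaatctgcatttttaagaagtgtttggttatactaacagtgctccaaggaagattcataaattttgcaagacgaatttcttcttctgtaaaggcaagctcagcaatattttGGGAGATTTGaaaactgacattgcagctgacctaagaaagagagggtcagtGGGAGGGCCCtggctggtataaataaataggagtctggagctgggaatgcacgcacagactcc
Ch25h: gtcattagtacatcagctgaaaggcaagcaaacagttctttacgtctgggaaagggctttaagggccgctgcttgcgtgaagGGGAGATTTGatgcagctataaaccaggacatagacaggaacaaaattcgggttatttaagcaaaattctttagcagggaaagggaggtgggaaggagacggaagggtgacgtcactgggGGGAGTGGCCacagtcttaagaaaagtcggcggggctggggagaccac
Icam1: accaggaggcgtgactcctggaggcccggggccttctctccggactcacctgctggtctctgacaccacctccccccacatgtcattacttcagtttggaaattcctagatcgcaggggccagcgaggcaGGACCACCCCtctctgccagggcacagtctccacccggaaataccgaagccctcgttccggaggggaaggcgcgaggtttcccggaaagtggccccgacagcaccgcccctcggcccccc
Cxcl12: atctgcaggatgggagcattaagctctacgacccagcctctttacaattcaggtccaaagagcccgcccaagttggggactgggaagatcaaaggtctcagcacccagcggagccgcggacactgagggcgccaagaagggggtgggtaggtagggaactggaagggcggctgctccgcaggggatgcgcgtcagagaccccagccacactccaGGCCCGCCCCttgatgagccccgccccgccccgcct
They lie at chr5:95956689-95956938 (plus strand), chr19:34475149-34475398 (minus strand), chr9:21015690-21015939 (plus strand) and chr6:117168285-117168534 (plus strand), each written 5′ to 3′ along its gene. The word GGGAGATTTG stands 114 to 105 bases before the start of Cxcl13 and 168 to 159 bases before that of Ch25h, on the coding strand. A kB element of these letters in the mouse Cxcl13 promoter is known as a binding site of RelB and p52. Other promoters of the 6 share stretches as long: Icam1 and Cr2 have 12 bases in common on either strand, against 11 for Cxcl13 and Ch25h. The word was noticed after the sequences had been read. Only shared words that begin with GGG on either strand were kept, so likeness to an NF-kB site was part of the choice. The word occurs on either strand in 23 of 32851 promoters (0.07%). The loose motif was found in 6 of the 6 promoters, but also in 45.8% of all promoters of that length. A stricter NF-kB consensus, found in 5% of all promoters, had no match in the 6. Both patterns begin with GGG, so stretches with another start, such as tggaaattcc in the Icam1 promoter, are not marked. Matches to either pattern or to the word are letters in a window and not measured sites.

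Counts in genes ranged from 14564835 to 29385718 in YFP+ and from 12481608 to 28931436 in YFP- libraries, so that 1 CPM (a count scaled to the library's total, with TMM factors) stood for 11.7 to 29.7 counts. Both libraries of replicate number 2 lay apart on the first principal component (33.3% of the variance), at 83.2 (YFP+) and 110.4 (YFP-), with the others between -51.2 and -15.5. Fibroblast markers dominated: 8 of them summed to 21521 to 34908 CPM in YFP+ and 26116.5 to 52021 CPM in YFP- libraries, and the sum was lower in YFP+ cells in 4 of 4 pairs of equal number. The collagen genes Col1a1, Col1a2 and Col3a1 and the proteoglycan genes Dcn and Lum, which make up most of that sum, fell with the block (5 of 8 markers, blocked folds 0.617 to 0.768, edgeR). In that fit 1.59% of all genes fell. Blocked limma voom called 5 of the 8 markers lower and blocked DESeq2 3, and without the block no tool called any. The lineage markers Pdgfra and Pdgfrb did not pass, with blocked folds of 0.997 and 1.07. Pan-leukocyte markers summed to 15.7 to 54.6 CPM in YFP+ and 9.48 to 25.3 CPM in YFP- libraries (8 markers, higher in 4 of 4 pairs). In pair 1 these sums were nearly equal, at 25.4 CPM in YFP+ and 25.3 CPM in YFP-. Of the 7 tested, 3 were higher in 4 of 4 pairs, as 8.86% of all genes tested were, while Laptm5 and Fcer1g were each higher in 2 and lower in 2. Blood endothelial markers summed to 32.6 to 223 and 46.4 to 128 CPM in YFP+ and YFP- libraries (8 markers), and lymphatic endothelial markers to 8.32 to 28.6 and 7.99 to 34.8 CPM (6 markers). B cell markers summed to 3.80 to 4.93 and 2.93 to 7.24 CPM (8 markers), mesothelial markers to 0.356 to 11.6 and 4.45 to 6.47 CPM (6 markers), and epithelial markers to 11.4 to 147 and 17.4 to 36.8 CPM (8 markers). Enteric glia markers, at 4.28 to 7.32 and 7.13 to 44.8 CPM (6 markers), were lower in YFP+ cells in 4 of 4 pairs. Smooth muscle and pericyte markers summed to 1464 to 2170.5 and 1636 to 2162 CPM (8 markers), a sum in which members moved in opposite directions. Acta2, Myh11 and Cspg4 rose with the block (blocked folds 1.33, 1.38 and 1.35, edgeR), Rgs5, the most abundant, fell (0.777), and 5 of the 8 were higher in 4 of 4 pairs. Over all genes tested, 0.696% rose and 1.59% fell with the block, and 8.86% were higher in 4 of 4 pairs. No marker of any of these lists was at 0 in all libraries. Mitochondrial genes took 7.71 to 9.43% of counts in YFP+ and 8.07 to 12.4% in YFP- libraries.

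The members spanned levels from among the most abundant of the transcriptome to none. Divided by exon length (GENCODE M21), Cxcl13 had the highest mean level over the 8 libraries, 352 CPM per kb, followed by Pdpn at 228, Icam1 at 155 and Cxcl12 at 90.4 CPM per kb. Vcam1 and Ch25h stood at 23.9 and 23.3, Enpp2 at 9.46, Il7 at 0.364 and Bst1 at 0.254 CPM per kb. In this order the ranges over libraries of Cxcl13 and Pdpn, Pdpn and Icam1, Icam1 and Cxcl12, Vcam1 and Ch25h, Ch25h and Enpp2, and Il7 and Bst1 overlapped. Those of Cxcl12 and Vcam1, and of Enpp2 and Il7, did not. By mean CPM, Cxcl12 and Icam1 ranked 127 and 146 among the 15945 genes tested, and Bst1 ranked 14542. Exon lengths are unions over annotated transcripts, so a gene with long alternative ends, such as Cxcl12 with 8176 bases, is placed lower than its main transcript would be.

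**Figure D1:**
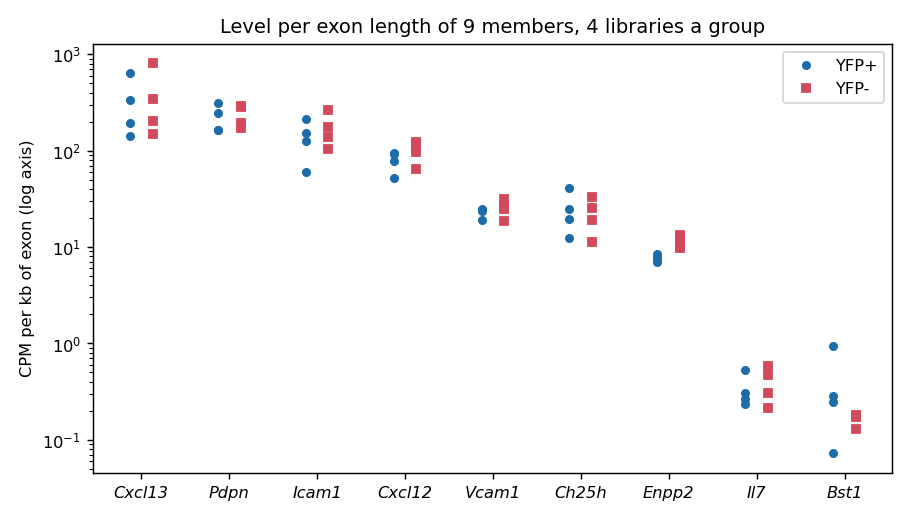
Level of 9 members in CPM per kb of exon (log axis), 4 YFP+ libraries (circles) beside 4 YFP- libraries (squares). Cxcl13, Pdpn, Icam1 and Cxcl12 lie above the other members in every library, and Il7 and Bst1 lie lowest; the YFP- library with 0 counts of Bst1 is not drawn.

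Cr2 had 0 counts in 8 of 8 libraries. A count of 0 allows up to 3 counts, which is 0.103 to 0.207 CPM in the YFP+ and 0.101 to 0.256 CPM in the YFP- libraries, counting error only. Fcer2a, the low-affinity IgE receptor of B cells and follicular dendritic cells, had 1 count in YFP+ and 0 counts in YFP- libraries. Cr2 was therefore not detectable at this depth, whereas Cxcl13 had at least 3056 counts in every library.

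The comparison of the sorted fractions asks which genes differ between YFP+ and YFP- stromal cells of the ulcers. Among the 9 tested members, Enpp2 and Cxcl12 fell in YFP+ cells when the replicate number entered the model as a block, and none rose. Enpp2 fell to 0.677 of its YFP- level (95% confidence interval 0.580 to 0.789) and Cxcl12 to 0.791 (0.725 to 0.863). Icam1, at 0.776 of its YFP- level (0.676 to 0.892), missed the threshold in edgeR (adjusted p = 0.0718). The blocked edgeR fit called 2.28% of all 15945 genes, 1.59% lower and 0.696% higher, which is the background for 2 of 9 members lower. At an unadjusted p of 0.05 that fit held 3 members, all lower, beside 6.42% of all genes lower and 4.69% higher. Blocked DESeq2 and limma voom each called 3 members lower and 0 higher, where DESeq2 called 2.28% of genes lower and 1.07% higher and limma voom 2.43% lower and 1.43% higher. Without the block, edgeR called 0 of the 9 members and 0% of all genes at an adjusted p of 0.05 or below. At an unadjusted p of 0.05 it held 1 member, Enpp2, and 325 genes, 2.04% (1.06% lower and 0.978% higher). The other tools without a block also called 0 members, with DESeq2 calling 2 genes and limma voom 0. Without both libraries of number 2, which lay apart, the blocked calls of Cxcl12 and Enpp2 held (log2 fold change -0.35 and -0.60, adjusted p = 0.0112 and 0.00629, edgeR). Without number 3 both calls were lost (adjusted p = 0.0881 and 0.0786), and without number 4 that of Enpp2 was lost (adjusted p = 0.0722). Libraries of equal number deviated together, which is why both fits are given.

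In the direction of the pairs, 4 of the 9 members were lower in the YFP+ library of 4 of 4 pairs (Icam1, Enpp2, Cxcl12 and Cxcl13), and none was higher in 4 of 4. Over all genes tested, 10.2% were lower in every pair and 8.86% higher. The median log2 fold change of the 9 members was -0.12 with the block and -0.19 without it, beside 0.0048 and 0.0045 over all genes tested. Without a block, Enpp2 was the 1 member whose groups did not overlap, a state that 0.859% of genes tested showed in the lower direction and 0.69% in the higher. In bulk RNA, fewer expressing cells and less RNA per cell cannot be told apart.

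**Figure D2:**
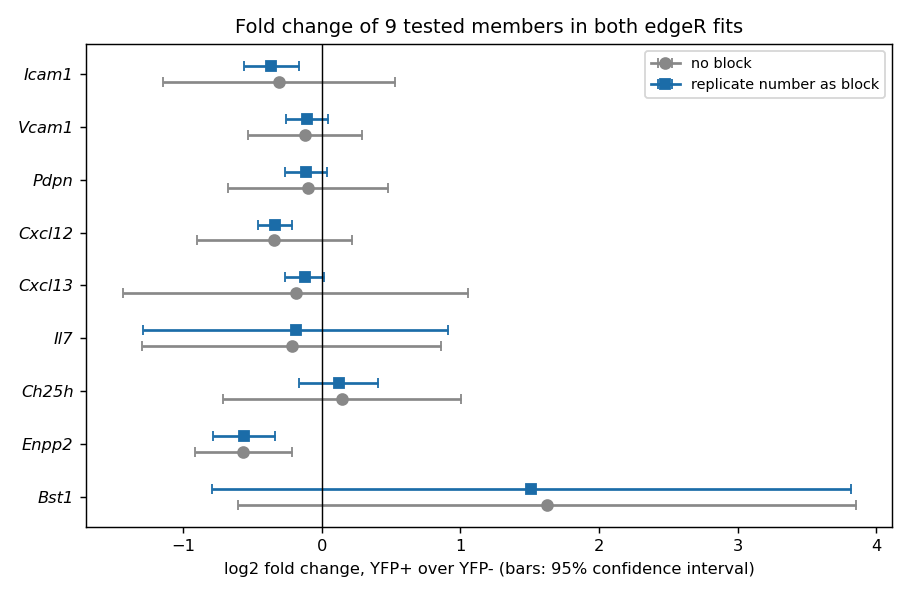
Log2 fold change of 9 members, YFP+ over YFP-, with 95% confidence intervals from edgeR fits with no block (circles) and with the replicate number as block (squares). The blocked intervals of Icam1, Cxcl12 and Enpp2 lie below 0, and those of Il7 and Bst1 are the widest.

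The adhesion gene Icam1 (ENSMUSG00000037405, GRCm38 chromosome 9, 21015985 to 21028817, plus strand) encodes the ligand of the leukocyte integrins LFA-1 and Mac-1. Its level was 658, 939.8, 549 and 259.9 CPM in YFP+ replicates 1 to 4, against 774, 1151, 608 and 450.1 CPM in YFP- replicates 1 to 4. Each YFP+ library lay under its YFP- partner, with ratios of 0.850, 0.816, 0.903 and 0.577, yet the groups overlapped widely. The order of replicate numbers was the same in both groups, with number 2 highest, then 1, 3 and 4. Means were 602 ± 281 CPM in YFP+ and 746 ± 301 CPM in YFP- cells (SD, n = 4 each). The log2 fold change was -0.37 ± 0.092 (SE) with the block (unadjusted p = 0.00192, adjusted p = 0.0718, edgeR) and -0.31 ± 0.378 without it (adjusted p = 0.99985). Blocked fits with DESeq2 and limma voom called it (adjusted p = 0.00193 and 0.00849), so its call depends on the tool. Without both libraries of number 4, the pair with the largest difference, the blocked value was -0.22.

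Vcam1 (ENSMUSG00000027962, chromosome 3, 116109949 to 116129688, minus strand), whose product binds the integrin VLA-4, varied least of the 9. It had 222, 169, 210.0 and 213 CPM in YFP+ replicates 1 to 4 and 278, 163, 227 and 218 CPM in YFP- replicates 1 to 4. The largest gap was in pair 1, and pair 2 went the other way. Its highest library was 1.70 times its lowest, and the blocked log2 fold change of -0.11 had an interval of -0.26 to 0.046 (adjusted p = 0.688, edgeR). Changes within that interval cannot be told from none.

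Pdpn (ENSMUSG00000028583, chromosome 4, 143267431 to 143299564, minus strand) encodes podoplanin, a mucin-type glycoprotein that binds CLEC-2 on platelets and dendritic cells. YFP+ replicates 1 to 4 had 564, 442, 295 and 300.5 CPM, against 519, 527, 312 and 356 CPM in YFP- replicates 1 to 4. Numbers 1 and 2 were high in both groups and numbers 3 and 4 low, and the YFP+ library was lower in 3 of 4 pairs. The blocked log2 fold change was -0.11, interval -0.26 to 0.036 (adjusted p = 0.642, edgeR). Pdpn is also made by lymphatic endothelium and mesothelium, whose markers stood at the low sums given above. The lymphatic sum was lower in YFP+ cells in 3 of 4 pairs and the mesothelial sum in 2 of 4. Among mesothelial markers, Upk3b was lower and Upk1b higher in 4 of 4 pairs. The part of such cells in the Pdpn values was not tested.

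Cxcl12 (ENSMUSG00000061353, chromosome 6, 117168535 to 117181367, plus strand) encodes the chemokine that retains CXCR4-bearing cells. Its level was 639, 426, 761 and 782 CPM in YFP+ replicates 1 to 4 and 799, 528, 1016 and 964 CPM in YFP- replicates 1 to 4. Every pair gave nearly the same ratio, 0.799, 0.807, 0.749 and 0.811, although the levels themselves ranged 2.39-fold over the 8 libraries and the groups overlapped. The blocked log2 fold change was -0.34 ± 0.0589 (SE; adjusted p = 0.00534, edgeR). Without the block it was -0.34 ± 0.254 (adjusted p = 0.99985). Without both libraries of number 3 the blocked log2 fold change was -0.31. The summed fibroblast markers of the same pairs had ratios of 0.773, 0.824, 0.775 and 0.638, carried by matrix genes, while Pdgfra and Pdgfrb stood at blocked log2 fold changes of -0.0037 and 0.099. Of the smooth muscle and pericyte genes, Acta2, Myh11 and Cspg4 moved opposite to Cxcl12, at 0.41, 0.47 and 0.43. Rgs5, the most abundant of that list, moved the same way as Cxcl12, at -0.36. The part of these markers in the result was not tested.

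Cxcl13 (ENSMUSG00000023078, chromosome 5, 95956951 to 95961068, plus strand), the B cell attractant, differed far more between replicate numbers than between the fractions. It had 163, 388, 736 and 223 CPM in YFP+ replicates 1 to 4, against 170.1, 395, 923 and 235 CPM in YFP- replicates 1 to 4. Number 3 was highest in both groups, followed by 2, 4 and 1, a 4.51-fold range among YFP+ and a 5.42-fold range among YFP- libraries. Within pairs the ratios were 0.960, 0.981, 0.798 and 0.948, close to 1 in all but pair 3. The blocked log2 fold change of -0.12 had an interval of -0.26 to 0.018 (adjusted p = 0.546, edgeR). Without the block the interval ran from -1.44 to 1.06.

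Il7 (ENSMUSG00000040329, chromosome 3, 7569994 to 7613760, minus strand), a survival factor of lymphocytes, was close to the limit of what these libraries can compare. There were 39, 22, 75 and 44 counts in YFP+ replicates 1 to 4 and 22, 31, 51 and 65 counts in YFP- replicates 1 to 4. These are 1.90 ± 0.751 CPM in YFP+ and 2.22 ± 0.924 CPM in YFP- cells (SD, n = 4 each), with 2 pairs higher and 2 lower. The 95% interval of the blocked fold, 0.408 to 1.88, leaves changes of either sign possible (adjusted p = 0.962, edgeR).

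**Figure D3:**
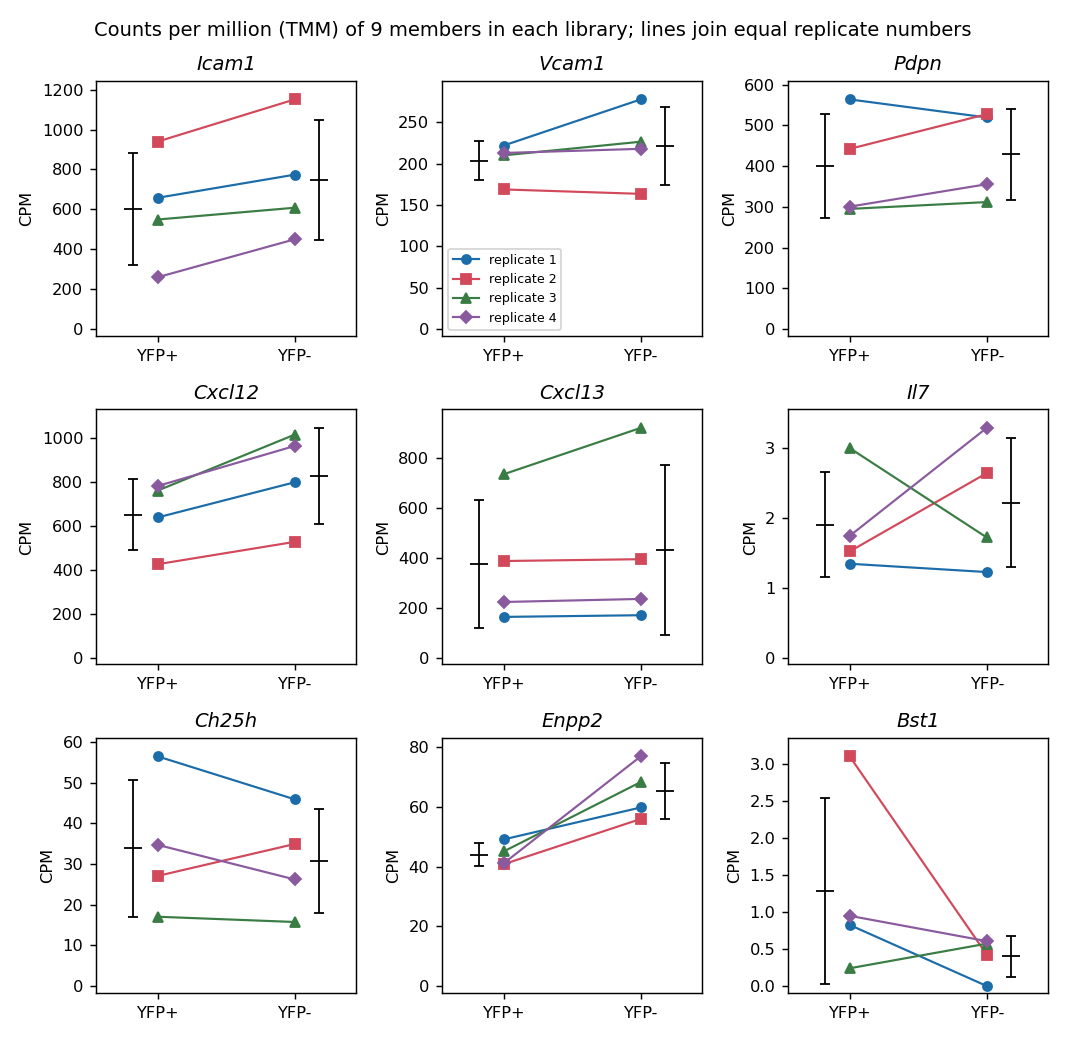
CPM of 9 members in each library on linear axes, YFP+ left and YFP- right, with lines joining libraries of equal replicate number and bars giving the mean ± SD (n = 4). The lines of Icam1, Cxcl12, Cxcl13 and Enpp2 slope the same way in 4 of 4 pairs, while the spread between numbers exceeds the slope for all of these but Enpp2.

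Among the enzymes, Enpp2 (ENSMUSG00000022425, chromosome 15, 54838901 to 54952892, minus strand) showed the clearest separation of the 2 fractions. It encodes autotaxin, which makes lysophosphatidic acid and is known to promote lymphocyte entry through high endothelial venules. YFP+ replicates 1 to 4 had 49.1, 40.8, 45.1 and 41.1 CPM, and YFP- replicates 1 to 4 had 59.8, 56.0, 68.4 and 77.0 CPM. The highest YFP+ library lay under the lowest YFP- library, and the YFP+ libraries were within 1.203-fold of each other. Means were 44.02 ± 3.91 CPM in YFP+ and 65.3 ± 9.35 CPM in YFP- cells (SD, n = 4 each). With the block the log2 fold change was -0.56 ± 0.104 (SE; adjusted p = 0.00821, edgeR). Without it the value was -0.57 ± 0.158 with an unadjusted p of 0.00444, which did not pass adjustment over all genes (adjusted p = 0.99985). Without both libraries of number 3 or of number 4 the blocked log2 fold change was -0.55 and -0.45. The pair ratios of 0.821, 0.729, 0.659 and 0.534 stand beside the marker values given for Cxcl12, whose part was not tested here either.

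Ch25h (ENSMUSG00000050370, chromosome 19, 34473778 to 34475164, minus strand) encodes cholesterol 25-hydroxylase, the first enzyme towards the oxysterol ligand of GPR183. Its level was 56.5, 27.1, 17.0 and 34.7 CPM in YFP+ replicates 1 to 4 and 45.9, 34.9, 15.7 and 26.2 CPM in YFP- replicates 1 to 4. Number 1 was highest and number 3 lowest in both groups, the reverse of the place of these numbers for Cxcl13. The YFP+ library was higher in 3 of 4 pairs, with a blocked log2 fold change of 0.12 and an interval of -0.16 to 0.40 (adjusted p = 0.861, edgeR).

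Bst1 (ENSMUSG00000029082, chromosome 5, 43818885 to 43843986, plus strand), an ectoenzyme of the ADP-ribosyl cyclase family, had the largest estimated fold of the 9 members and the widest interval. There were 24, 45, 6 and 24 counts in YFP+ replicates 1 to 4 and 0, 5, 17 and 12 counts in YFP- replicates 1 to 4. YFP+ replicate 2 held 45 of the 99 YFP+ counts. The blocked fold of 2.85 had an interval of 0.577 to 14.1 (adjusted p = 0.712, edgeR). The blocked log2 fold change of 1.51 became 0.75 without both libraries of number 1, 0.96 without number 2 and 2.50 without number 3, and none of these was called. Fbxl5 lies on the opposite strand over part of Bst1, and genes annotated with Gm names overlap Icam1, Vcam1, Ch25h, Enpp2 and Il7 in the same way. Whether reads were assigned by strand is not stated in the labels, so reads of such partners may be included.

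In the authors' deposited table, 3 of the 9 members had an adjusted p of 0.05 or below, all with negative log2 fold changes. They were Cxcl12 (-0.344, adjusted p = 1.2e-07), Enpp2 (-0.568, adjusted p = 7.4e-04) and Icam1 (-0.371, adjusted p = 0.00161). That table calls 2.07% of its 16502 genes with an adjusted p lower and 0.939% higher. Its log2 fold changes were within 0.001 of a DESeq2 fit with the replicate number as a term for 100% of these genes, while those of a fit without that term differed by a median of 0.0292.

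Most of the variation of these genes lay between replicate numbers. For the log2 CPM of Cxcl13, 99.1% of the sum of squares over the 8 libraries fell to the replicate number, 0.485% to the YFP fraction and 0.458% to the rest. Pdpn, Ch25h, Icam1, Vcam1 and Cxcl12 followed with 93.4, 93.0, 87.2, 85.5 and 81.7% between numbers. Enpp2 stood apart from these 6, with 8.64% between numbers and 78.5% between the fractions. Cxcl12 combined a large part between numbers with 17.98% between fractions and 0.335% left over. For the scarce genes Il7 and Bst1 the rest took 48.0 and 39.1%. The median over the 9 members was 85.5% between numbers, beside 72.2% over all genes tested. The term for the replicate number has more degrees of freedom than that for the fraction, so the shares describe and do not test.

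**Figure D4:**
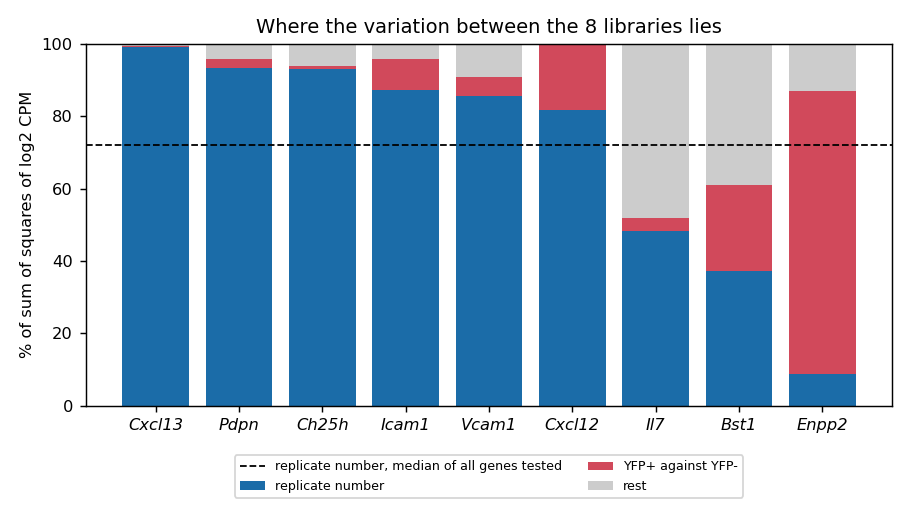
Share of the sum of squares of log2 CPM over 8 libraries that falls to the replicate number, to the YFP fraction and to the rest, for 9 members. The dashed line marks the median share of the replicate number over all genes tested, 72.2%; 6 members lie above it and Il7, Bst1 and Enpp2 below.

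The genes whose profile over the 8 libraries was most like that of a member were sought for the 3 members of highest coefficient of variation, Bst1, Cxcl13 and Ch25h. Likeness was the mean absolute difference in log2 CPM, each gene centred on its own mean. Closest to Cxcl13 was Ndrg2, at 0.0849, with 19.3, 43.99, 78.5 and 25.4 CPM in YFP+ replicates 1 to 4 and 20.9, 44.5, 89.2 and 30.1 CPM in YFP- replicates 1 to 4. Adora1, an adenosine receptor gene, and Hif3a, a hypoxia-inducible factor subunit, followed at 0.164 and 0.223. Closest to Ch25h were the phosphodiesterase gene Pde10a at 0.172, the atypical CXCL12 receptor gene Ackr3 at 0.172 and Ap3s1 at 0.216. For Bst1 the nearest, Igha, Tll2 and Atpaf1, were no closer than 0.823, 0.825 and 0.877. For Cxcl13 and Ch25h, 99.1 and 93.0% of the sum of squares lay between replicate numbers, and for Bst1 37.2%.

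Other genes of lymphoid stroma did not move as one group. Of 15 such genes, 12 were tested, and 4 fell while 0 rose with the block (edgeR), where 1.59% of all genes fell and 0.696% rose. The median log2 fold change of the 12 was 0.0017. At an unadjusted p of 0.05 the list held 4 lower and 2 higher, beside 6.42% and 4.69% of all genes. Blocked DESeq2 and limma voom each called 4 of the list lower and 1 higher. Il33, an alarmin, fell to 191 ± 39.4 CPM in YFP+ cells, against 279 ± 63.7 CPM in YFP- cells, and Grem1, a BMP antagonist, to 592 ± 103 against 862 ± 106 CPM (SD, n = 4 each). The cytokine gene Il6 fell to 426 ± 221 CPM in YFP+ cells, against 599 ± 258 CPM in YFP- cells, and the complement gene C4b to 1291 ± 61.9 against 1768 ± 141 CPM (SD, n = 4 each). Blocked adjusted p-values (edgeR) were 3.4e-04, 4.4e-04, 0.0216 and 8.0e-04 for Il33, Grem1, Il6 and C4b. C4b shares near-identical sequence with a neighbouring copy, so its counts are uncertain. Without the block none of these was called. The lymphoid chemokine genes Ccl19 and Ccl21a had 18 and 59 counts in YFP+ libraries and 4 and 191 in YFP- libraries. Neither these nor Fcer2a passed the expression filter, and Ccl21a ranged from 0 to 131 counts a library. Both chemokine symbols stood on 2 identifiers, of which only the first was read, so their counts may be incomplete.

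Of 16 genes for lymphotoxin ligands, their receptor and NF-kB, 14 were tested and 0 passed in either edgeR fit. At an unadjusted p of 0.05 the blocked edgeR fit held 5, all lower, and the fit without the block 0. Over all genes tested the blocked fit held 6.42% lower and 4.69% higher. Blocked DESeq2 called 4 lower and blocked limma voom 5 lower, so that the count depends on the tool, and both called 0 without the block. The median log2 fold change with the block was -0.15. In 4 of 4 pairs 7 genes were lower and 1 higher, beside 10.2% and 8.86% of all genes tested. The 3 most abundant were Nfkb1, Birc3 and Nfkbia, which encode a canonical NF-kB subunit, an inhibitor of apoptosis and an inhibitor of NF-kB. Their blocked log2 fold changes were -0.40, -0.28 and -0.30 (adjusted p = 0.146, 0.117 and 0.0682, edgeR). Ltbr itself had 79.7 ± 14.1 CPM in YFP+ and 71.3 ± 13.8 CPM in YFP- cells (SD, n = 4 each), higher in 2 of 4 pairs. The ligand genes Lta and Ltb had 0 counts each in YFP+ and 12 and 4 counts in YFP- libraries.

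Of 23 receptor and partner genes of the members, 14 were tested. With the block 2 fell while 0 rose (edgeR), where 1.59% of all genes fell and 0.696% rose. The median log2 fold change of the 14 was -0.12. At an unadjusted p of 0.05 the list held 3 lower and 1 higher, beside 6.42% and 4.69% of all genes. With the block DESeq2 called 3 of the list lower and limma voom 2 lower, with 0 higher in each. Cd81, a tetraspanin that fibroblasts also make, fell to 25.0 ± 4.84 CPM in YFP+ cells, against 49.8 ± 15.9 CPM in YFP- cells (SD, n = 4 each; blocked adjusted p = 2.0e-04, edgeR). Cyp7b1, the oxysterol 7-alpha-hydroxylase that acts after Ch25h, fell to 159 ± 49.2 CPM in YFP+ cells, against 199 ± 49.7 CPM in YFP- cells (SD, n = 4 each; blocked adjusted p = 0.0123, edgeR). The integrin chain gene Itgb1 and the lysophosphatidic acid receptor gene Lpar1, the most abundant of the list, stood at log2 fold changes of 0.13 and -0.08 with the block and were not called. Hsd3b7, whose enzyme inactivates the GPR183 ligand, is listed at 0 counts in all libraries. A gene annotated on the same strand, Gm49388, overlaps Hsd3b7, and the counting rule for shared reads is not stated in the labels, so this 0 is uncertain. The receptor genes Cxcr4, Cxcr5 and Gpr183 had 40, 24 and 21 counts in YFP+ and 75, 33 and 5 in YFP- libraries. Il7r, the receptor gene of Il7, had 1.23 ± 0.659 CPM in YFP+ and 3.55 ± 0.825 CPM in YFP- cells (SD, n = 4 each). Its level was lower in YFP+ cells in 4 of 4 pairs, as for 10.2% of all genes tested. Its groups did not overlap, a state that 0.859% of genes tested showed in the lower direction. At a blocked fold of 0.322 and 15 to 86 counts a library, Il7r was not called in edgeR (unadjusted p = 0.00387, adjusted p = 0.115). Which genes of this list DESeq2 and limma voom called is not given here.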

How the data were processed

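Gene expression was measured by RNA sequencing of 4 YFP+ and 4 YFP- libraries of sorted CD45-negative, CD31-negative cells, prepared with a stranded total RNA kit for low input, per the labels' protocols. Per the submitters' processing notes the authors used cutadapt 3.4, STAR 2.7.3a, featureCounts 2.0.1 and DESeq2 on GRCm38; no order, setting, annotation release or strand option is stated there. Per the file headers, the deposited table holds raw counts per gene, normalised values (a score, counts divided by size factors and rounded, which was not used in any test), and the authors' comparison with its fold (ratio), log2 fold change, p-value and adjusted p-value.

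From the deposited counts, edgeR 4.0.16 (R 4.3.3) was run on the whole table: filterByExpr by group (15945 genes kept), TMM, robust quasi-likelihood fit on group alone, two-sided test, Benjamini-Hochberg adjustment over all genes tested, threshold 0.05. Log2 CPM used a prior count of 0.5. The alternative with the replicate number as block was planned. Deviations from group means of libraries of equal number correlated at 0.186, 0.420, 0.324 and 0.333, against at most 0.0374 between different numbers, and each of the 8 libraries was nearest to its partner. On this ground, from the data and not from the labels, equal numbers were treated as pairs. No label ties a number to an animal, so the p-values describe the spread between these samples, which may be technical. Within groups, no libraries were duplicates (chi-square over degrees of freedom at least 50.9).

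Members, lists and rules were chosen with earlier results of these data known. All members are named; from the other lists, those called in either fit, and where at most 2 were called also the 3 of highest mean CPM; further names were added after seeing values. Where a symbol stood on 2 identifiers (Ccl19, Ccl21a, Itgam) the identifier with the lower number was used, and Itgam is not described. A gene of the lists is not reported here. Coordinates and exon lengths come from GENCODE M21 (53706 of 53801 identifiers matched). Alternatives used DESeq2 1.42.0, limma 3.58.1, other scalings and filters, and left-out libraries. The edgeR script was tested on simulated counts. Intervals of fold changes come from the fits and include the spread between libraries; the floor of 3 counts covers counting error only.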

Additional observations from a re-analysis of the deposited data

How the results depend on the processing

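Without a block, edgeR called 0 genes and 0 members under RLE factors, library sizes alone, a filter at any count of at least 1 or at a CPM of at least 2 in 4 libraries, and without mitochondrial genes; limma voom also called 0 and DESeq2 2 genes and 0 members. With the replicate number as block, edgeR called 364 genes and 2 members, DESeq2 525 and 3, limma voom 616 and 3, and edgeR with library sizes alone 365 and 2. Of the edgeR calls with the block 30.5% were higher in YFP+ cells, and 58.1% with library sizes alone, a scaling that moved the median log2 fold change of all genes from 0.0048 to 0.091; both called members stayed lower. When libraries were left out, singly without the block or by number with it, genes called ranged from 0 to 426 (0 for each single library; 194, 426, 157 and 167 with the block without number 1, 2, 3 and 4) and members called from 0 to 2. Directions of members that were not called turned in some of these: the log2 fold change ran from -0.24 to 0.0053 for Vcam1, -0.30 to 0.028 for Pdpn, -0.21 to 0.41 for Ch25h, -0.53 to 0.066 for Il7 (-0.52 to 0.039 for single libraries, 0.0092 with the block without number 2) and -0.74 to 0.50 for Cxcl13, the last also 0.080 with limma voom without the block. Icam1, Enpp2, Cxcl12 and Bst1 kept their direction in all alternatives run, from -0.61 to -0.025 for Icam1. Why calls differed between alternatives was not tested. Depth limits Bst1, Il7 and Cr2, at 0 to 75 counts a library.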
